A study of Mus musculus with 10 samples.

Results

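Ribosomal proteins and translation factors were examined on 10 Affymetrix arrays of mouse primary cortical neurons that had been exposed to the proteasome inhibitor lactacystin or left as controls. The members were the probe sets, each the set of short probes that reports on a transcript, whose platform gene symbol starts with Rpl, Rps, Eif or Eef and that were present in both deposited tables, with the Rps6k and Eif2ak kinases left out. The rule gave 89 probe sets for 74 genes among 9977 probe sets for 7417 named genes. They divided into 19 probe sets for 16 genes of the large ribosomal subunit (60S), 21 for 17 genes of the small subunit (40S), 42 for 35 genes of initiation factors and 7 for 6 genes of elongation factors. The classes follow the symbols, so initiation factors include Eif4ebp1 and Eif4ebp2, which inhibit initiation. Elongation factors likewise include the kinase Eef2k and the methyltransferase Eef1akmt1. Another 34 probe sets that the platform pairs with several symbols, at least 1 of them by this rule, were counted apart and are not named. Among the member probe sets, 14 carry a suffix that marks possible binding to related transcripts, those of Rps13, Rps24, Rps28, Rps4l, Rpl41, Rpl7, Eef1b2, Eif2b4, Eif2s3y, Eif4a1, Eif4b and Rpl38, and their values are uncertain between gene copies.

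The neurons came from cortices of foetal Swiss albino mice at gestation day 15 to 16, with no genetic change named, and were treated on day 5 of culture. Lactacystin was given at 1 µM in serum-free NB medium after dilution from a stock in DMSO. The 4 groups were controls at 24 h (2 arrays), lactacystin at 24 h (3 arrays), controls at 48 h (2 arrays) and lactacystin at 48 h (3 arrays). Each group held 1 array of the U74A design and 1 or 2 of its revision U74Av2, and the labels do not say whether controls received the solvent or whether replicates were separate cultures, so a p-value here reflects how far arrays of a group differ, which can be technical variation. The comparison asks how transcript levels of cortical neurons change under proteasome inhibition.

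A ribosome is built from a 40S subunit, which reads the messenger RNA, and a 60S subunit, which joins amino acids, each made of ribosomal RNA and many proteins. Initiation factors bring the starter transfer RNA, the messenger RNA cap and the 40S subunit together, and elongation factors then deliver transfer RNAs and move the ribosome along. In neurons this machinery also works in dendrites, and stress kinases are known to slow initiation by phosphorylating the factor eIF2.

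Signals below are deposited intensities scaled so that each array had a 2% trimmed mean of 500 over the shared probe sets, and they are given in the order of the replicate numbers. A log2 change is the lactacystin minus the control value on the log2(signal + 32) scale with its standard error (SE), and its p-value comes from a limma fit of the 10 arrays together that also held the array design, adjusted by the Benjamini-Hochberg method over 6984 tested probe sets. A gene is called where that adjusted p was under 0.05. Of the 89 member probe sets, 74 passed the filter on low signal, and the brightest tested probe set of each gene stood for 65 genes, which were 12 of the 60S, 14 of the 40S, 33 of initiation and 6 of elongation. The genes with no tested probe set were Rps14, Rps15, Rps20, Rpl35a, Rpl38, Rpl39, Rpl39l, Eif4enif1 and Eif4h.

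The arrays differed most by design. Median deposited signals ran from 159 to 235, and the ratio of the 3' to the 5' control probe set of Gapdh, a sign of RNA length, was 0.72 to 0.79 on U74A arrays and 1.55 to 3.48 on U74Av2 arrays. The same ratio for beta-actin was 1.13 to 1.16 in the 4 controls, 1.103 on the U74A lactacystin array of 24 h and 1.18 to 1.46 on the other 5 lactacystin arrays, and its part in the results was not tested. Neuron markers were present in every group, and their part in the results below was not tested. Of 7 tested neuron markers 3 were lower with lactacystin at 24 h and 4 at 48 h, and their summed signal was 33719 to 39327 in controls and 25659 to 28184 with lactacystin at 24 h, and 38939 to 44048 and 25531 to 34397 at 48 h. Of 6 astrocyte and radial glia markers 3 were lower and 1 higher at 24 h and 2 were higher at 48 h, when 3 of 5 microglial and 5 of 5 proliferation markers were also higher. Of 5 fibroblast, mural and meningeal markers 1 was higher at 24 h and 2 at 48 h, when Acta2 had 2.10 and Tagln 2.12. Their summed signal was 1193 to 1240 in controls and 1120 to 2453 with lactacystin at 24 h, and 1144 to 1194 and 2035 to 3772 at 48 h. Fewer cells of a type and less RNA per cell cannot be told apart in these bulk samples.

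Start sites of ribosomal protein genes are known for a run of pyrimidines (C or T), and messenger RNAs that begin with one are translated under control of the kinase mTOR. RefSeq starts were at hand for 62 of the 74 member genes, as 300 bases each of build GRCm38.p6, while Eef1akmt1, Eif1a, Eif3e, Eif4ebp1, Eif4g2, Eif6, Rpl7, Rpl8, Rps14, Rps20, Rps29 and Rps4l had none in the table. The windows below hold 30 bases before and 20 bases from the annotated start, the latter being the beginning of the first exon, and capitals mark any base in a run of 8 or more pyrimidines. The first 5 are ribosomal protein genes, of which Rps19 and Rpl13a changed most in their subunits at 24 h and Rps18, Rps10 and Rpl7a are shown for their pyrimidine runs. Eif3d, Eif3m, Eif4a2 and Eef1a2 are the factors that the results turn on, and Eif4a1 and Eef1a1 are shown as the sister copies of the last 2.
Rps19, chr7:24884562-24884611, plus strand: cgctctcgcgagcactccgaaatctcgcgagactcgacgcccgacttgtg
Rpl13a, chr7:45128726-45128775, minus strand: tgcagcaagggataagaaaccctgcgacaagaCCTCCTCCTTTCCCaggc
Rps18, chr17:33955646-33955695, minus strand: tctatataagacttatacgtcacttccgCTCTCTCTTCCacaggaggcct
Rps10, chr17:27635225-27635274, minus strand: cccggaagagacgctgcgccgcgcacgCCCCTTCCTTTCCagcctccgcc
Rpl7a, chr2:26910777-26910826, plus strand: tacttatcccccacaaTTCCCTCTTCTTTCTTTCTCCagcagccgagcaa
Eif3d, chr15:77970805-77970854, minus strand: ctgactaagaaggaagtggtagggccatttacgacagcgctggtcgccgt
Eif3m, chr2:105017008-105017057, minus strand: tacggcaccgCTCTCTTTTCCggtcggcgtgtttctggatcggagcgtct
Eif4a1, chr11:69672404-69672453, minus strand: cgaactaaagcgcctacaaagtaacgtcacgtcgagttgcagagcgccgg
Eif4a2, chr16:23107438-23107487, plus strand: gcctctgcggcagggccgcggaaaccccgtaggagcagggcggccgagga
Eef1a1, chr9:78481705-78481754, minus strand: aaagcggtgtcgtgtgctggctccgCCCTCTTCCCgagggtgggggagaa
Eef1a2, chr2:181156996-181157045, minus strand: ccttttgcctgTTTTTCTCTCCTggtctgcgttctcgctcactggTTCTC

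Runs across or next to the start were seen in Rpl13a (14 bases from position 3), Rps18 (11 bases from position -2), Rps10 (13 bases from position -3), Rpl7a (21 bases from position -14) and Eef1a1 (10 bases from position -5), counted from 1 at the start with no 0. Rps19, Eif3d, Eif4a1 and Eif4a2 had no such run in these windows, and in Eif3m and Eef1a2 runs of 11 and 12 bases lay before the start. Eef1a2 also had a run of 11 bases from position 16, which the end of its window cuts. Rps19 has 3 RefSeq starts, of which only the first listed is shown, so its window does not speak for the others. A run of 8 or more pyrimidines within 25 bases of the start, read on the coding strand, was held by 17 of 35 RefSeq starts of ribosomal protein genes (48.6%), 15 of 49 of the factors (30.6%) and 24.1% of all 32851 starts. A C at the start followed by 4 pyrimidines, which can overlap such a run, was held by 14.3%, 2.04% and 2.51%. These shares describe the sequence only.

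Short motifs were counted in the same 300 bases on both strands. CCGGAAG, a site of ETS family factors, was held by 31.4% of the ribosomal protein starts and 32.7% of the factor starts, against 8.86% of all starts. ATGGCGG, a site of YY1, was held by 7 of 35 and 3 of 49 (6.12%) of these starts and 4.05% of all. The E box CACGTG was held by 11.4%, 22.4% and 7.15%. Its holders were 3 ribosomal protein genes (Rps19, Rpl13a and Rpl19) and 9 factor genes. The 9 were Eef2, Eef2k, Eif1b, Eif3a, Eif3k, Eif4a1, Eif4e, Eif4h and Eif5a, of which only Eif3k was called below and Eif4h was not tested. TGACNNNGC, the core of an antioxidant response element, was held by 11.4%, 18.4% and 12.4%. TGATGNAA, read by ATF4 and its partners, was held by 0 of 35, 2 of 49 (Eef2k and Eif2s3x) and 3.97%. A match is a description of these letters and not a site of binding.

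At 24 h with lactacystin 12 member genes rose and 3 fell, and 9 of the 12 that rose were initiation factors by symbol. These 9 include the inhibitor Eif4ebp1. The called genes were 12 higher of 74 tested probe sets (16.2%) where 8.20% of all tested probe sets were higher, and 3 lower (4.05%) where 6.66% were lower. At 48 h 5 rose (6.76%, against 6.77% of all) and 1 fell (1.35%, against 3.57%), so the share of members that rose lay at that of the arrays as a whole. Ribosomal proteins gave 3 of the 26 tested genes higher at 24 h and 2 at 48 h, with 0 lower at both. The limma count at an unadjusted p under 0.05 was 8 higher and 0 lower at 24 h and 3 higher and 2 lower at 48 h for ribosomal proteins. Of all 6984 tested probe sets 1025 were higher and 1026 lower by that measure at 24 h, and 1052 and 679 at 48 h. Factors gave 9 higher and 3 lower of 39 at 24 h, and 3 higher and 1 lower at 48 h. Among the 30 tested probe sets with several symbols, 3 were higher and 1 lower at 24 h and 0 at 48 h, when 4 were higher at an unadjusted p under 0.05.

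**Figure D1:**
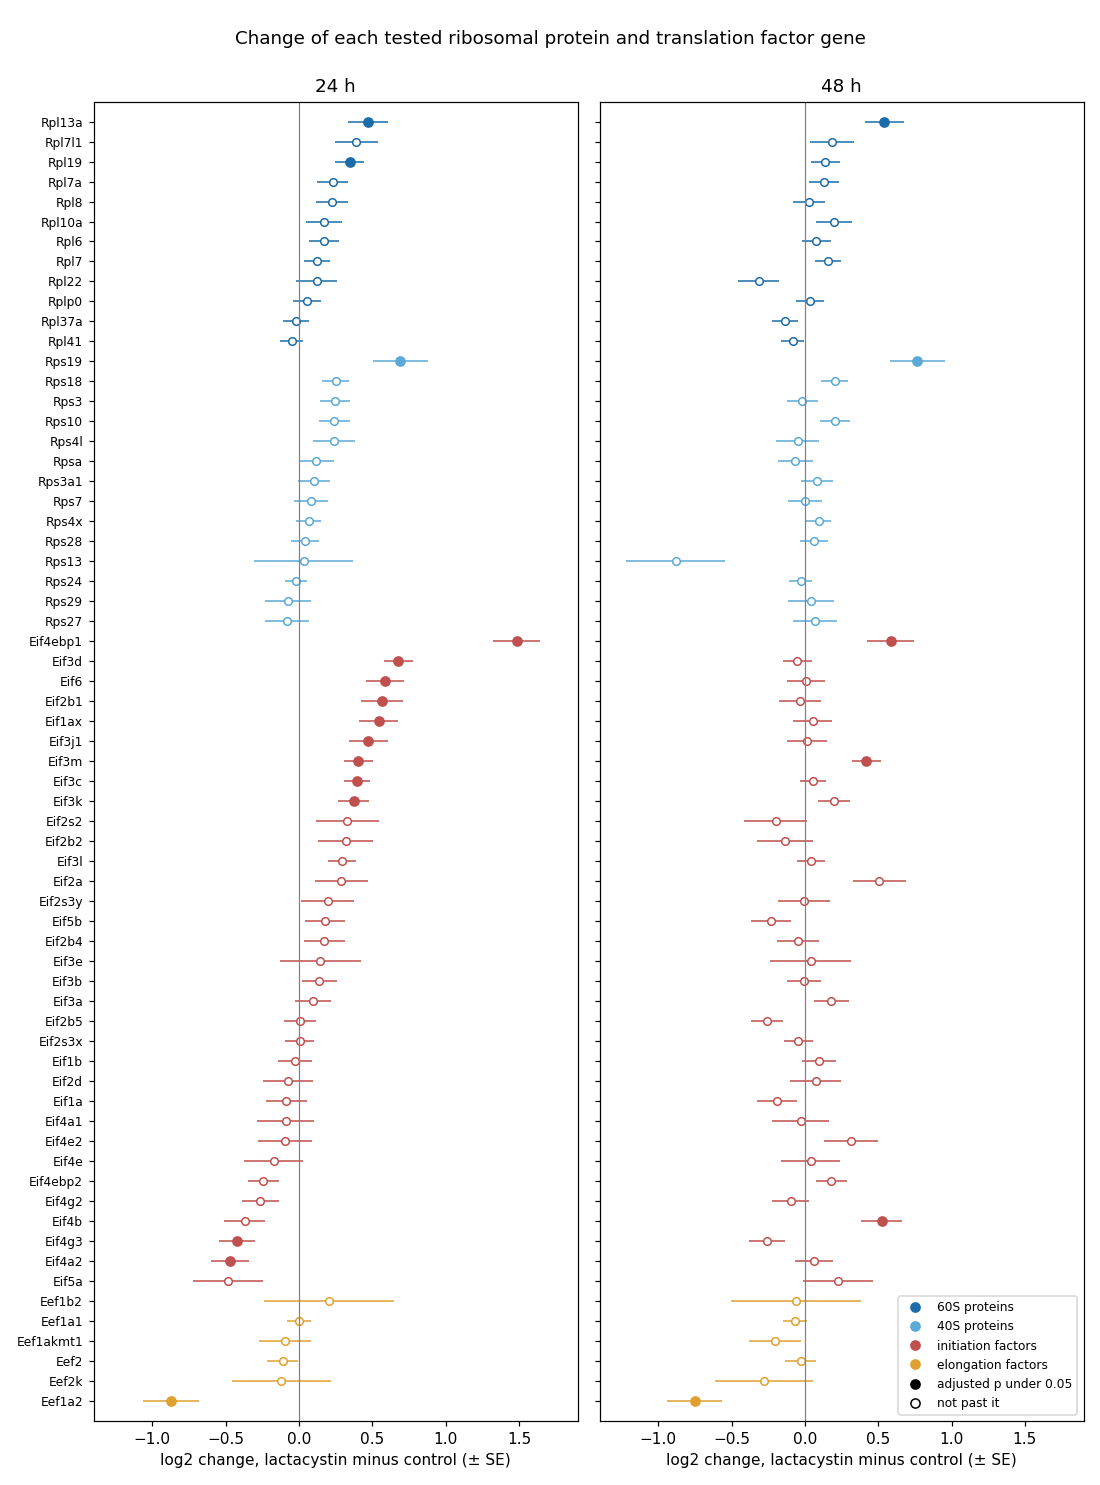
Log2 change (± SE) with lactacystin against control for each of the 65 tested genes at 24 h (left) and 48 h (right), ordered within each class by the change at 24 h; filled points have an adjusted p under 0.05. Ribosomal proteins lie close to 0, with Rps19 and Rpl13a to the right at both times. Rps13 at -0.88 and Rpl22 at -0.31 lie to the left at 48 h. Initiation factors spread from -0.48 to 1.48 (the inhibitor Eif4ebp1) at 24 h and narrow at 48 h.

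Each array was left out in turn, and in what follows a lone number in parentheses after a left-out array or a setting is the adjusted p of the limma fit. The 24 h count was 4 without control replicate 1, 3 without control replicate 2, and 9, 7 and 8 without lactacystin replicates 1, 2 and 3. Fewer of all tested probe sets were also called in each fit that left out a 24 h array. Without 24 h lactacystin replicates 1, 2 and 3, 8, 6 and 6 of 74 member probe sets were higher. The shares of all tested probe sets that were higher in these fits were 6.64%, 5.6% and 5.8%. Eif4ebp1 and Eif3d were the 24 h calls kept in all 10 fits that left out an array. The 48 h count was 0 without either 48 h control, and 2, 1 and 2 without lactacystin replicates 1, 2 and 3 of that time. With only 2 control arrays a time, 1 on each design, such a fit leaves a single control. With no covariate for array design the call of Eif4ebp1 was the only one left at 24 h, and 0 were left at 48 h. At 24 h that was 1 of 74 member probe sets higher, where 2.46% of all tested probe sets were higher and 1.09% lower. The 15 genes called at 24 h and the 6 at 48 h had the same sign of change within U74A and within U74Av2. They were chosen by a fit over both designs, so this agreement is not separate evidence. Among all 65 tested genes 48 had the same sign at 24 h and 39 at 48 h.

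The scaling matters at 48 h. Scaling arrays by their median in place of the trimmed mean moved the median change of all tested probe sets by -0.15 at 48 h and by 0.019 at 24 h, and the share of higher calls among all calls at 48 h went from 65.5% to 30.9%. Under it 0 of 74 member probe sets were called higher at 48 h and 3 lower, where 4.08% of all tested probe sets were higher and 9.11% lower. The share of lower members was thus below that of all. The 3 were Eef1a2, Rpl22 (-0.48, adjusted p = 0.0381) and Eif2b5 (-0.42, adjusted p = 0.0389). The 24 h split of 12 and 3 became 10 and 2, where 8.06% of all tested probe sets were higher and 5.48% lower. Changes at 48 h are therefore read beside the median of all tested probe sets, 0.041 in the scaling used here and -0.11 with median scaling.

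Ribosomal protein genes as a group stayed near their control level. The median change of the 12 genes of the 60S was 0.17 at 24 h and 0.10 at 48 h, and that of the 14 genes of the 40S was 0.092 and 0.052, against -0.034 and 0.041 for all tested probe sets. With median scaling the 48 h medians turned to -0.062 for the 60S and -0.099 for the 40S, against -0.11 for all. At each time 22 of the 26 genes lay within 0.25 of 0 on the log2 scale, where 53.2% and 59.6% of all tested probe sets did. The 26 genes also varied little within groups, with a median residual SD of 0.11 for the 60S and 0.13 for the 40S, against 0.17 for all tested probe sets. These probe sets are also bright, with a median signal of 8135 for the 60S and 9848 for the 40S against 390 for all tested probe sets. Whether the brightest signals are compressed, which would make both changes and residual SDs smaller, was not tested.

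Single structural proteins gave small changes from bright signals. Rplp0, the base of the stalk that recruits elongation factors, had signals of 13598 and 14969 in the 24 h controls and 15268, 14616 and 15435 with lactacystin, a change of 0.056 ± 0.097. At 48 h Rplp0 stood at 13910.4 and 16039.7 in controls and 15619, 17874 and 13508 with lactacystin, a change of 0.034 ± 0.097. Rps24, which takes part in ribosomal RNA maturation, had 18969.9 and 17933 in the 24 h controls and 19029.5, 17132 and 17968 with lactacystin, and 19403 and 17921 in controls and 18386, 18241 and 17784 with lactacystin at 48 h. The groups of both genes overlapped at each time, and the changes of Rps24 were -0.022 ± 0.075 and -0.030 ± 0.075. Rpl41, the smallest protein of the 60S, changed by -0.051 ± 0.079 and -0.083 ± 0.079, and Rpl37a by -0.022 ± 0.090 and -0.14 ± 0.090. Rps28 changed by 0.040 ± 0.097 and 0.062 ± 0.097. None of these 5 was called. The signal of Rpl41, 21111 on average, was the highest of all tested probe sets. A second, fainter probe set of Rps24 (signal 68.8 on average) had -0.46 and -0.078.

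Rps19, a 40S protein needed to mature the small subunit and mutated in Diamond-Blackfan anaemia, rose the most among ribosomal proteins. Signals of Rps19 were 4427 and 6985 in the 24 h controls and 10607, 8093 and 9619 with lactacystin, and 4092 and 5963 in controls and 10176, 10089 and 6603 with lactacystin at 48 h. The lactacystin arrays lay above both controls at each time. The log2 change was 0.69 ± 0.19 at 24 h (adjusted p = 0.0292) and 0.77 ± 0.19 at 48 h (adjusted p = 0.0240). It was 1.25 on U74A and 0.34 on U74Av2 at 24 h, and 0.69 and 0.76 at 48 h. The 24 h call was lost without control replicate 1 (0.52, adjusted p = 0.226) or replicate 2 (0.89, adjusted p = 0.0879). The 48 h call was lost without control replicate 1 (adjusted p = 0.179), control replicate 2 (0.114), lactacystin replicate 1 (0.0696) or lactacystin replicate 2 (0.0581), and with median scaling (0.60, adjusted p = 0.0729).

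Rpl13a, a 60S protein that can leave the ribosome to silence inflammatory messages, rose by a similar amount at both times. Its signals were 719.5 and 1175 in the 24 h controls and 1261, 1419 and 1325 with lactacystin, and 783 and 973 in controls and 1359.5, 1409 and 1230.4 with lactacystin at 48 h. No lactacystin array reached down to a control of its time. The log2 change was 0.47 ± 0.14 (adjusted p = 0.0378) and 0.54 ± 0.14 (adjusted p = 0.0271). Within designs it was 0.78 on U74A and 0.22 on U74Av2 at 24 h and 0.63 and 0.50 at 48 h. The 24 h call was lost in 7 of the 10 fits that left out an array, with the lowest change, 0.24, and an adjusted p of 0.308 without control replicate 1. The other losses at 24 h were without lactacystin replicate 1 (0.131), 2 (0.0886) or 3 (0.0565), 48 h control replicate 1 (0.0523) or 2 (0.0532) and 48 h lactacystin replicate 1 (0.0501). At 48 h it was lost without control replicate 1 (0.135) or 2 (0.177), without lactacystin replicate 2 (0.0522) or 3 (0.0902), and with median scaling (0.38, adjusted p = 0.0976).

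Rpl19, part of the bridges between the subunits, was called at 24 h and not at 48 h. The signals of Rpl19 were 8335 and 12449 in the 24 h controls and 11916, 14820.3 and 14919 with lactacystin, so the lowest lactacystin array, on U74A, lay below the U74Av2 control. The change was 0.35 ± 0.099 (adjusted p = 0.0376), and 0.14 ± 0.099 at 48 h (adjusted p = 0.434). The call was lost without control replicate 1 (0.161) or 2 (0.206), without lactacystin replicate 1 (0.22, adjusted p = 0.107), 2 (0.0524) or 3 (0.0599), without 48 h lactacystin replicate 1 (0.0553) and with median scaling (0.0702). Rps18, which faces the 60S in the head of the small subunit, had 0.25 ± 0.091 at 24 h (adjusted p = 0.0899) and 0.20 ± 0.091 at 48 h. Rps3, a 40S protein at the entry of the messenger RNA channel, and Rps10 had 0.25 ± 0.11 and 0.24 ± 0.10 at 24 h. Rpl10a, a 60S protein, had 0.17 ± 0.12 and 0.20 ± 0.12. Rpl7l1, a copy related to Rpl7 with a part in making the large subunit, had 0.39 ± 0.15 (adjusted p = 0.104), and none of these 5 passed the threshold.

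In the scaling used here no ribosomal protein gene was called lower at either time. Of the 26 changes 21 were above 0 at 24 h and 18 at 48 h, where 3186 and 3906 of all 6984 tested probe sets were. With median scaling 3 of 12 genes of the 60S and 3 of 14 of the 40S were above 0 at 48 h. Rpl22 was then called lower at that time (-0.48, adjusted p = 0.0381). Rps13, a 40S protein, had -0.88 ± 0.34 at 48 h from signals of 65.4 and 219 in the controls and 69.3, 68.5 and 47 with lactacystin (adjusted p = 0.130), with 0.033 ± 0.34 at 24 h. Its control arrays differed by design, 65.4 on U74A and 219 on U74Av2, and it was called at 48 h without 24 h lactacystin replicate 3 (-0.91, adjusted p = 0.0466). Rpl22, which also binds RNAs outside the ribosome, had -0.31 ± 0.14 at 48 h (adjusted p = 0.194) from 1564 and 1412 in the controls and 1156, 1386 and 1122 with lactacystin, which lay below both controls, and 0.12 ± 0.14 at 24 h. Its other probe set had 0.083 and -0.010. Rps27 and Rps29, a pair of small zinc-binding 40S proteins, had -0.081 ± 0.15 and -0.074 ± 0.16 at 24 h, and Rpsa, also known as a laminin receptor, had 0.12 ± 0.12 and -0.065 ± 0.12.

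All 9 tested subunits of eIF3 had positive changes at 24 h, where 3186 of all 6984 tested probe sets did. By the test 5 of the 9 rose (55.6%, against 8.20% of all tested probe sets). eIF3 is the largest initiation factor, a complex that holds the 40S subunit open and links it to the cap-binding factors. The median change was 0.37 at 24 h, against -0.034 for all tested probe sets, and 0.043 at 48 h, against 0.041. At 48 h 1 of the 9, Eif3m, was called higher (11.1%, against 6.77%). Median scaling gave 0.39 at 24 h with 4 called and -0.11 at 48 h with 0 called, against -0.11 for all.

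Eif3d, the subunit that can itself bind the cap of some messages, changed most in the complex. Its signals were 1665 and 2547 in the 24 h controls and 2687, 4088 and 4229 with lactacystin. At 48 h they were 1494 and 2709 in the controls and 2519, 2506 and 1483 with lactacystin. The lactacystin arrays lay above both controls at 24 h, and the groups overlapped at 48 h. The change was 0.68 ± 0.098 at 24 h (adjusted p = 0.00111), a fold of 1.60, and -0.051 ± 0.098 at 48 h (adjusted p = 0.810). It was 0.68 on U74A and 0.70 on U74Av2 at 24 h, and -0.0095 and -0.11 at 48 h. The difference between the 2 effects was -0.73 ± 0.14 (adjusted p = 0.0269), and Eif3d was the only member called in that comparison, where 0.816% of all tested probe sets were lower and 0.415% higher. That call was kept without lactacystin replicate 1 of 24 h or replicate 2 of 48 h and lost in the other 8 fits that left out an array. The adjusted p was 0.0642 and 0.150 without 24 h control replicates 1 and 2, 0.0750 and 0.123 without 48 h control replicates 1 and 2, 0.0798 and 0.105 without 24 h lactacystin replicates 2 and 3, and 0.0574 and 0.0528 without 48 h lactacystin replicates 1 and 3.

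Eif3m was the subunit called at both times. Its signals were 1882 and 1599.8 in controls and 2429, 2272 and 2106 with lactacystin at 24 h and 1615 and 1490.4 in controls and 2082, 1873 and 2202 with lactacystin at 48 h. The groups did not overlap at either time. The changes were 0.41 ± 0.10 (adjusted p = 0.0198) and 0.42 ± 0.10 (adjusted p = 0.0224), and the 4 within-design changes lay between 0.36 and 0.44. The 24 h call was lost without control replicate 1 (0.0609) or 2 (0.191) or lactacystin replicate 2 (0.0767). The 48 h call was lost without control replicate 1 (0.135) or 2 (0.126) or lactacystin replicate 1 (0.0688) or 3 (0.0508), and with median scaling (0.26, adjusted p = 0.157).

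Eif3c, a scaffold of the complex, had 4096 and 4824 in the 24 h controls and 5541, 6079 and 6529.5 with lactacystin. The change was 0.40 ± 0.088 (adjusted p = 0.0118), with no overlap of the groups. At 48 h it was 0.054 ± 0.088, with the lactacystin array on U74A at 4084 beside a U74A control of 4094. The loosely bound subunit Eif3j1 had 1466 and 1922 in controls and 2162, 2482 and 2532 with lactacystin at 24 h, a change of 0.47 ± 0.13 (adjusted p = 0.0372), and 0.014 ± 0.13 at 48 h. Eif3k, a peripheral subunit, had 1907 and 2651 in controls and 2790.3, 3227 and 3196 with lactacystin at 24 h, a change of 0.37 ± 0.11 (adjusted p = 0.0362), and 0.20 ± 0.11 at 48 h (adjusted p = 0.281). The 24 h groups of both genes were apart, though by little in Eif3k, whose U74A lactacystin array at 2790 stood next to a U74Av2 control at 2651.

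These 3 calls rested on each array to different degrees. Eif3c was lost without control replicate 1 (0.0553) or 2 (0.123) or lactacystin replicate 3 (0.0505). Eif3j1 was lost without control replicate 1 (0.34, adjusted p = 0.243) or 2 (0.0854) or lactacystin replicate 1 (0.0697), 2 (0.0893) or 3 (0.0984). Eif3k was lost without control replicate 1 (0.167) or 2 (0.155) or lactacystin replicate 1 (0.110), 2 (0.0674) or 3 (0.0631), and with median scaling (0.0537). The remaining subunits were not called. Eif3l had 0.29 ± 0.096 at 24 h (adjusted p = 0.0652), the scaffold subunits Eif3a and Eif3b 0.094 ± 0.12 and 0.14 ± 0.12, and Eif3e 0.15 ± 0.28, with 1 of its controls at 39.1 and the other at 148. A brighter Eif3e probe set on the U74Av2 design alone (signal 874 on average) had -0.19 at 24 h and 0.42 at 48 h, so the 2 probe sets differ in sign at 24 h. Eif3f, found on that design alone (signal 88.7 on average), had -0.15 and 0.41. With 1 control array at each time these were not tested, and neither is among the 9.

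**Figure D2:**
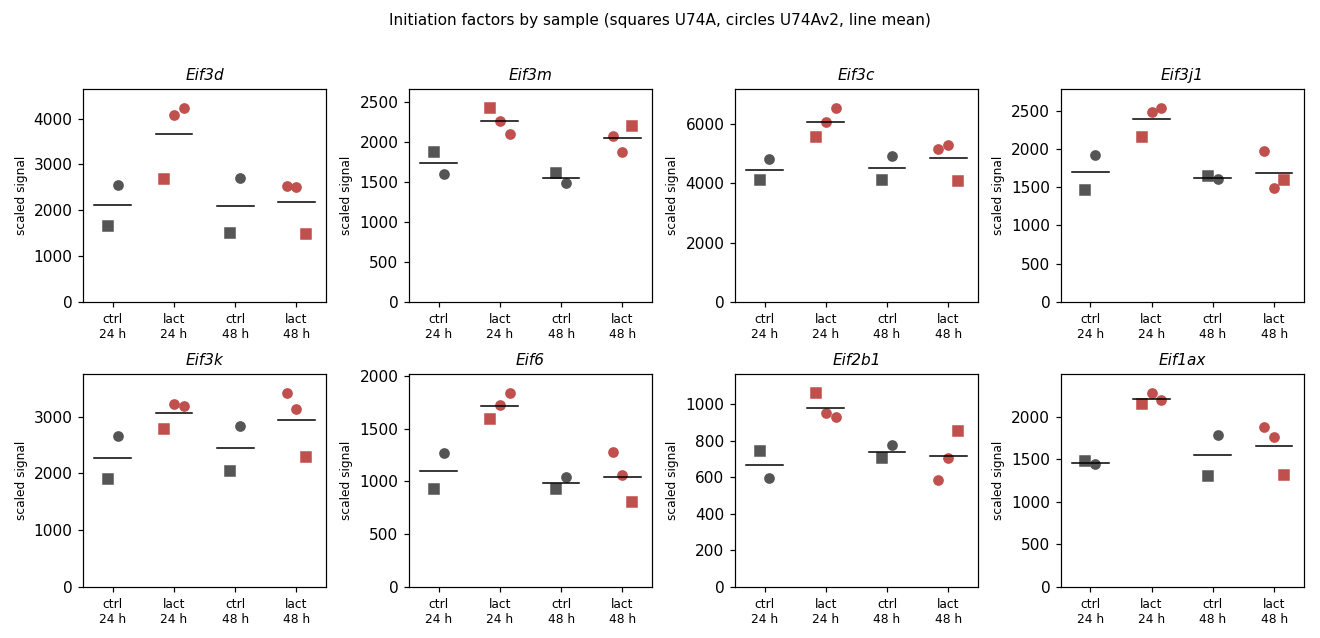
Scaled signal of 8 initiation factor genes in each of the 10 arrays, grouped by treatment and time; squares are U74A arrays, circles U74Av2 arrays and lines group means. The 3 lactacystin arrays of 24 h lie above both controls of that time in each panel, and at 48 h they do so for Eif3m alone among the 8. The 8 genes were all called higher at 24 h from these same arrays, so the separation at 24 h is not separate evidence.

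Other initiation factors that rose at 24 h stand at other steps. Eif1ax, the factor eIF1A that helps the 40S subunit scan for the start codon, had signals of 1473 and 1447 in the 24 h controls and 2147, 2271 and 2188 with lactacystin. The change was 0.54 ± 0.13 (adjusted p = 0.0181), 0.53 on U74A and 0.61 on U74Av2, and 0.054 ± 0.13 at 48 h (adjusted p = 0.856). The call was lost without control replicate 2 (0.36, adjusted p = 0.281) or lactacystin replicate 1 (0.0717). Its autosomal relative Eif1a had -0.086 ± 0.14, and Eif1b, of the factor eIF1, -0.028 ± 0.12, and neither of these was called. A U74Av2-only probe set of Eif1ax had -0.39 at 24 h and -0.20 at 48 h, in 2 lactacystin arrays against 1 control, which is opposite in sign to the shared probe set at 24 h.

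Eif6, which keeps 60S subunits from joining too early and takes part in making them, had 929.8 and 1269 in the 24 h controls and 1589, 1723 and 1832 with lactacystin. All 3 lactacystin arrays lay above the controls. The change was 0.59 ± 0.13 (adjusted p = 0.0117), and at 48 h 0.0058 ± 0.13 from 929.6 and 1045 in controls and 1275, 1057 and 806 with lactacystin. That call was lost without control replicate 1 (0.0901) or 2 (0.0721).

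The eIF2 and eIF2B genes carry the step on which stress kinases act, since eIF2 brings the starter transfer RNA and eIF2B recharges it. Eif2b1, the subunit of eIF2B that senses phosphorylated eIF2, had 745 and 595 in the 24 h controls and 1059, 949 and 928 with lactacystin. The change was 0.56 ± 0.14 (adjusted p = 0.0213), and -0.033 ± 0.14 at 48 h (adjusted p = 0.927). The call was lost without control replicate 1 (0.0663) or 2 (0.219) or lactacystin replicate 1 (0.0527), 2 (0.0624) or 3 (0.0567). The other 3 tested eIF2B genes, Eif2b2, Eif2b4 and the catalytic Eif2b5, had 0.32 ± 0.19, 0.17 ± 0.14 and 0.0064 ± 0.11 at 24 h and were not called. At 48 h all 4 eIF2B genes were below 0, with a median of -0.092, against 0.041 for all tested probe sets.

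Of eIF2 itself 0 of 3 tested genes were called at 24 h or 48 h by limma, also at an unadjusted p under 0.05. Eif2s2, the beta subunit, had 153 and 68 in controls and 204, 91.5 and 91 with lactacystin at 24 h and 127 and 60.7 in controls and 57.3, 26.1 and 131 with lactacystin at 48 h, with changes of 0.33 ± 0.22 and -0.20 ± 0.22. Its signals were low and split by design. The gamma subunit copies on the X and Y chromosomes, Eif2s3x and Eif2s3y, had 3967, 5037 and 5144 and 339, 338 and 307 with lactacystin at 24 h and 4439.8 and 4624 and 267 and 299 in the controls. Their changes were 0.0033 ± 0.099 and 0.19 ± 0.18.

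The cap-binding side lay below its controls at 24 h. This group comprises the cap-binding protein eIF4E, the scaffold eIF4G and the helicase eIF4A with its helper eIF4B. All 7 tested genes lay below 0 at 24 h, with a median of -0.26 against -0.034 for all tested probe sets. Of all 6984 tested probe sets 3186 lay above 0. By limma 2 of the 7 fell (28.6%, against 6.66% of all). With median scaling 1 of the 7 fell at 24 h. At 48 h 4 of the 7 were above 0, with a median of 0.040 against 0.041, and 1 rose (14.3%, against 6.77% of all). Outside the 7, Eif4e2, a relative of eIF4E on the U74Av2 design alone, had 0.37 at 24 h and 0.68 at 48 h, and a U74Av2-only probe set of Eif4b had -0.27 and 0.26, neither of them tested.

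Eif4a2, the helicase copy abundant in brain, had 7888 and 5561 in the 24 h controls and 5114, 3905 and 4753 with lactacystin. The lactacystin arrays lay below both controls. The change was -0.47 ± 0.13 (adjusted p = 0.0284), and 0.062 ± 0.13 at 48 h from 6405 and 5820.4 in controls and 5086, 5508 and 8102 with lactacystin. Its sister copy Eif4a1 had 846 and 682 in the 24 h controls and 1045, 581 and 528 with lactacystin, a change of -0.092 ± 0.19 that was 0.29 on U74A and -0.29 on U74Av2. The Eif4a2 call was lost without control replicate 1 (0.177) or 2 (0.124) or lactacystin replicate 1 (0.1001) or 2 (0.0876). The difference between the copies was not tested, and the Eif4a1 probe set is of a kind (suffix _r_at) that can bind related transcripts.

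Eif4g3, an eIF4G scaffold copy, had 1819 and 1375 in the 24 h controls and 1141, 1194 and 1120.5 with lactacystin. The change was -0.42 ± 0.12 (adjusted p = 0.0368), and -0.26 ± 0.12 at 48 h (adjusted p = 0.213), with the lactacystin arrays below the controls at both times. That call at 24 h was lost without control replicate 1 (-0.28, adjusted p = 0.258) or 2 (0.0546) or lactacystin replicate 1 (0.120), 2 (0.0558) or 3 (0.0899), and with median scaling (0.0599). Eif4g2, a relative of eIF4G that lacks the eIF4E-binding part, had -0.26 ± 0.13 and -0.096 ± 0.13, and Eif4e, the cap-binding protein itself, -0.17 ± 0.20 and 0.040 ± 0.20. Neither was called.

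Eif4b, the helper of the helicase, was the gene of this group that rose at 48 h. Its signals were 1254 and 1145 in controls and 908, 867 and 919 with lactacystin at 24 h and 1019 and 873 in controls and 1062, 1367 and 1645 with lactacystin at 48 h. The change was -0.37 ± 0.14 at 24 h (adjusted p = 0.102) and 0.52 ± 0.14 at 48 h (adjusted p = 0.0359). The difference between the effects was 0.89 ± 0.20 (adjusted p = 0.0532), and it was called without 48 h lactacystin replicate 1 (1.03, adjusted p = 0.0252). The 48 h call was lost without control replicate 1 (0.150) or 2 (0.219), without 24 h lactacystin replicate 2 (0.0581) or 3 (0.0525), without 48 h lactacystin replicate 2 (0.0889) or 3 (0.132), and with median scaling (0.36, adjusted p = 0.105). The fit of the 24 h arrays alone called its fall at that time (-0.39, adjusted p = 0.0340).

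Eif4ebp1 had the largest rise of the members at 24 h. It encodes 4E-BP1, which blocks eIF4E until mTOR phosphorylates it and is a known target of the stress factor ATF4. The signals of Eif4ebp1 were 146 and 275 in the 24 h controls and 564, 689 and 709 with lactacystin, and 127 and 139 in controls and 252, 239 and 191 with lactacystin at 48 h. Every lactacystin array lay above the controls of its time. The change was 1.48 ± 0.16 at 24 h (adjusted p = 0.000134), a fold of 2.80, and 0.58 ± 0.16 at 48 h (adjusted p = 0.0391), a fold of 1.50. The smaller effect at 48 h differed from that at 24 h by -0.90 ± 0.22 (adjusted p = 0.0804), past the threshold with median scaling (-1.06, adjusted p = 0.0289).

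The 24 h call of Eif4ebp1 was kept in all 10 fits that left out an array, with a highest adjusted p of 0.00294, and in each of the other 14 settings that could be run, with a highest of 0.00867. Its 48 h call was lost without control replicate 1 (0.0699) or 2 (0.354), without 24 h lactacystin replicate 2 (0.0656) or 3 (0.0658), without 48 h lactacystin replicate 1 (0.0864), 2 (0.0644) or 3 (0.0990), and with median scaling (0.44, adjusted p = 0.0791). Eif4ebp2, the related inhibitor that prevails in brain, had 1666 and 2734 in the 24 h controls and 1345, 2226 and 2473 with lactacystin. Its change was -0.24 ± 0.10 (adjusted p = 0.146) and 0.18 ± 0.10 at 48 h, and its other tested probe set had 0.13 and -0.12. The difference between Eif4ebp1 and Eif4ebp2 was not tested.

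**Figure D3:**
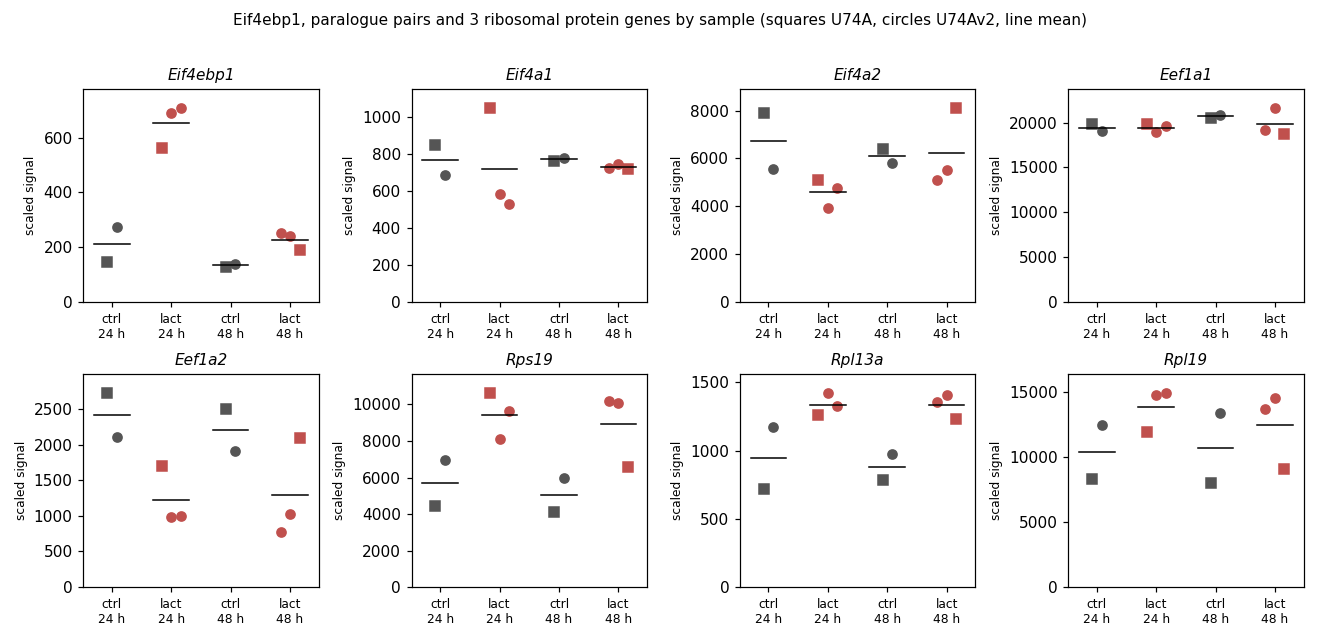
Scaled signal of 8 genes in each of the 10 arrays, grouped by treatment and time; squares are U74A arrays, circles U74Av2 arrays and lines group means. Eif4ebp1 at 24 h reaches 564 to 709 with lactacystin against 146 and 275 in controls, Eef1a2 and Eif4a2 lie below the 24 h controls, and Eef1a1 stays between 18782 and 21625 throughout.

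Of the 5 late and other initiation factors, grouped by symbol and not all acting late in initiation, only Eif6 was called. Eif2a, an alternative carrier of the starter transfer RNA, had 208 and 370.0 in the 48 h controls and 442, 486 and 350.1 with lactacystin, a change of 0.51 ± 0.18 (adjusted p = 0.105) that overlapped its controls. Eif5a, which eases peptide bonds that ribosomes form slowly, had -0.48 ± 0.24 and 0.23 ± 0.24 from signals under 100 in every array. Eif5b, which joins the subunits, had 0.18 ± 0.13 and -0.23 ± 0.13, and its other probe set 0.51 and -0.10. None of these was called.

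Among elongation factors Eef1a2 fell at both times and the others did not pass the test. eEF1A carries transfer RNAs to the ribosome, and Eef1a2 is the copy that takes over from Eef1a1 in mature neurons and muscle. The signals of Eef1a2 were 2719.6 and 2106 in the 24 h controls and 1703, 979.7 and 997 with lactacystin, and 2506 and 1914 in controls and 767, 1024 and 2091 with lactacystin at 48 h. The 24 h groups were apart, while at 48 h the U74A lactacystin array lay above the U74Av2 control. The change was -0.87 ± 0.19 at 24 h (adjusted p = 0.00994), a fold of 0.55, and -0.75 ± 0.19 at 48 h (adjusted p = 0.0280). Within designs it was -0.67 on U74A and -1.07 on U74Av2 at 24 h, and -0.26 and -1.08 at 48 h. Its 24 h call was lost without control replicate 2 (-0.63, adjusted p = 0.209). The 48 h call was lost without control replicate 1 (0.0608) or 2 (0.337) and without lactacystin replicate 1 (0.0624) or 2 (0.0505).

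Eef1a1 was called at neither time. Its signals were 19853 and 19049.7 in the 24 h controls and 19861, 18912 and 19619.6 with lactacystin, and 20489 and 20908 in controls and 19154, 21625 and 18782 with lactacystin at 48 h, with overlap at both times. Its change was -0.0013 ± 0.082 at 24 h and -0.065 ± 0.082 at 48 h, and whether signals this bright are compressed was not tested. Of the 7 neuron markers, 3 fell at 24 h, with a summed signal of 33719 to 39327 in controls and 25659 to 28184 with lactacystin, and whether that had a part in the fall of Eef1a2 was not tested. Eef2, which moves the ribosome by a codon, had -0.11 ± 0.10 and -0.029 ± 0.10, and Eef2k, the kinase that switches Eef2 off, -0.12 ± 0.34 and -0.28 ± 0.34. Eef1akmt1, a methyltransferase of eEF1A, had -0.096 ± 0.18 and -0.20 ± 0.18, and Eef1b2, the exchange factor of eEF1A, 0.20 ± 0.44 and -0.060 ± 0.44, with opposite signs on the 2 designs.

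Between the controls of 24 h and 48 h no change passed the threshold. Of the members 0 were called higher and 0 lower by limma, as for all tested probe sets (0% and 0%). At an unadjusted p under 0.05 by limma 1 of 65 member genes was higher and 3 lower, where 144 and 247 of all 6984 tested probe sets were. Under lactacystin 2 members were higher at 48 h than at 24 h (2.7%, against 6.19% of all tested probe sets) and 9 were lower (12.2%, against 5.38%). The 9 that fell between the times were 8 initiation factors and Rps4l. This comparison uses the same lactacystin arrays as the others and is not separate evidence.

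Of the 9, 7 were genes that had risen at 24 h. Eif4ebp1 had a change of -1.403 between the times (adjusted p = 0.000161), Eif3d one of -0.76 ± 0.087 (adjusted p = 0.000352) and Eif6 one of -0.72 ± 0.12 (adjusted p = 0.00257), each kept in all 10 fits that left out an array. Eif3j1 had -0.51 ± 0.12 (adjusted p = 0.0207), Eif3c -0.33 ± 0.078 (adjusted p = 0.0219), Eif1ax -0.43 ± 0.12 (adjusted p = 0.0394) and Eif2b1 -0.45 ± 0.13 (adjusted p = 0.0416). Eif3k and Eif3m, which had also risen at 24 h, had -0.077 ± 0.094 and -0.14 ± 0.089 and were not called. Eif2s2 had -0.69 ± 0.19 (adjusted p = 0.0400) and Rps4l, a copy of Rps4 outside the X chromosome, -0.46 ± 0.13 (adjusted p = 0.0411). The other probe set of Rps4l had 0.32, and the mean of the 2 had -0.072 (adjusted p = 0.814). U74Av2-only probe sets of Eif1ax and Eif2s2 were not tested, and their lactacystin arrays overlapped between the times. That of Eif1ax had 731 and 692 at 24 h and 880 and 660 at 48 h. That of Eif2s2, brighter than the shared probe set, had 613 and 673 at 24 h and 709 and 387 at 48 h.

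The 2 that were higher at 48 h were Eif4b at 0.56 ± 0.12 (adjusted p = 0.0149) and Eif4a2 at 0.42 ± 0.11 (adjusted p = 0.0363). Eif4b went from 908, 867 and 919 to 1062, 1367 and 1645 and Eif4a2 from 5114, 3905 and 4753 to 5086, 5508 and 8102, where the highest Eif4a2 value, on U74A, was the highest of the 6 lactacystin arrays. Without 48 h lactacystin replicate 3 the changes were 0.45 (adjusted p = 0.0692) and 0.31 (adjusted p = 0.136). The 8 calls of this comparison other than Eif4ebp1, Eif3d and Eif6 were kept in 3 to 8 of the 10 fits that left out an array. The count of 11 was 3 and 6 without 24 h lactacystin replicates 2 and 3, and 6 and 5 without 48 h replicates 2 and 3. Eif2b4, the delta subunit of eIF2B, had -0.42 ± 0.13 (adjusted p = 0.0516) and was called without 48 h lactacystin replicate 2 (adjusted p = 0.0295) and with median scaling (adjusted p = 0.0302).

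Set side by side, the ribosomal proteins and the factors differed little in their medians and, at 24 h, more in their spread. The median change of the 26 ribosomal proteins was 0.12 at 24 h and 0.065 at 48 h, and that of the 39 factors 0.094 and -0.0057, so the medians differed by 0.027 and 0.070. Leaving out an array moved that difference between 0.0043 and 0.26 at 24 h and between 0.015 and 0.11 at 48 h. Of the factors 20 of 39 lay within 0.25 of 0 at 24 h and 30 at 48 h, against 22 of 26 ribosomal proteins at each time. The interquartile range of the changes was 0.20 for ribosomal proteins and 0.43 for factors at 24 h, and 0.18 and 0.16 at 48 h. All tested probe sets had 0.46 and 0.39. The classes also differed in brightness, with median signals of 8135 (60S), 9848 (40S), 940 (initiation) and 1116 (elongation). Whether brightness had a part in the difference in spread was not tested.

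The medians were also taken array by array. Each array was set against the mean of the 2 controls of its design, 1 from each time, so those controls lie at mirrored values by construction. The ribosomal proteins had medians of 0.27 on the U74A lactacystin array of 24 h and 0.020 and 0.051 on the U74Av2 arrays, so 1 array lay apart from the others. At 48 h they had 0.040, 0.17 and 0.036. The eIF3 genes had 0.43, 0.29 and 0.33 at 24 h and 0.16, 0.12 and 0.042 at 48 h. The factors as a whole had 0.085, 0.096 and 0.12 at 24 h and 0.0011, 0.030 and -0.068 at 48 h.

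**Figure D4:**
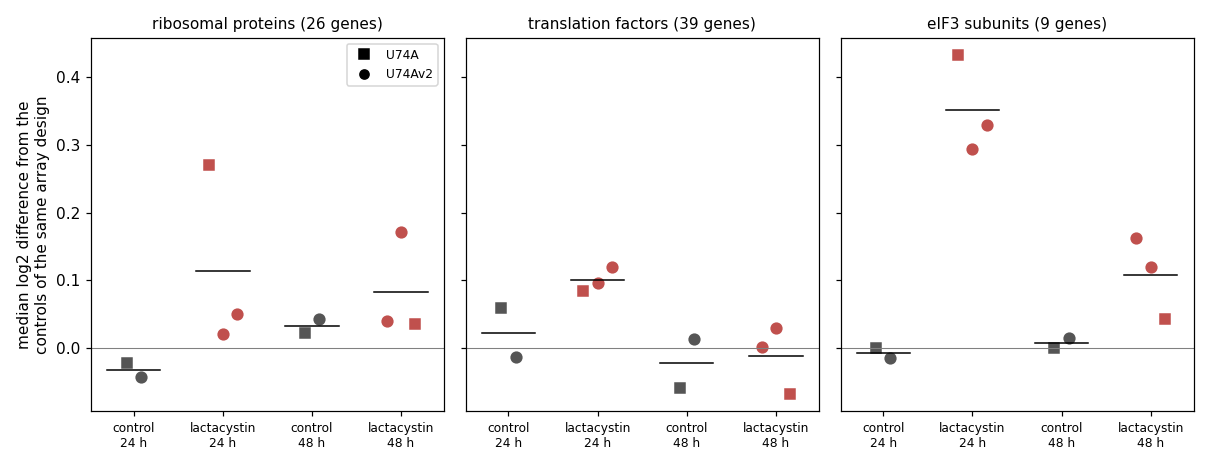
Median log2 difference of each array from the mean of the controls of its own design, for 26 ribosomal protein genes, 39 translation factor genes and 9 eIF3 genes; squares are U74A arrays, circles U74Av2 arrays and lines group means. The eIF3 medians at 24 h with lactacystin run from 0.29 to 0.43, and the 2 controls of a design mirror each other by construction, while 1 U74A array at 0.27 stands above the other ribosomal protein medians.

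On both array designs 48 of the 65 genes had the same sign of change at 24 h and 39 at 48 h. By class these were 8 of 12 (60S), 11 of 14 (40S), 25 of 33 (initiation) and 4 of 6 (elongation) at 24 h. The 60S median at 24 h was 0.29 on U74A and 0.099 on U74Av2, and the 40S median 0.21 and 0.055. For eIF3 the medians were 0.43 and 0.38 and for the cap-binding side -0.21 and -0.29. Each design has 1 control array at each time, so these changes carry no error.

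**Figure D5:**
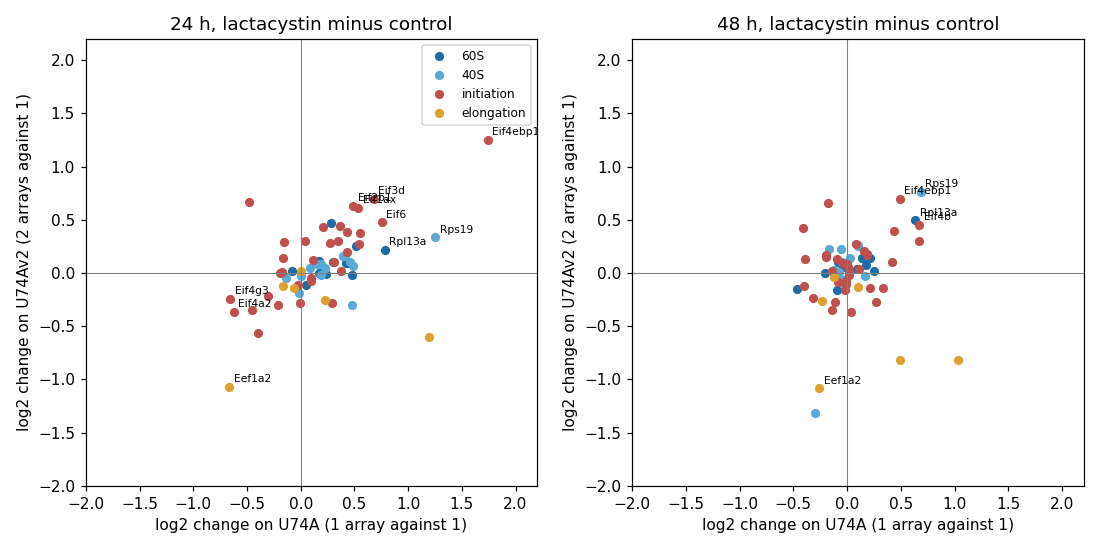
Log2 change of each of the 65 tested genes on U74A arrays (1 lactacystin against 1 control) and on U74Av2 arrays (2 against 1), at 24 h (left) and 48 h (right), coloured by class; called genes more than 0.6 from 0 on an axis are named. Eif4ebp1 is far from 0 on both designs at 24 h, and Rps19 is at 1.25 on U74A and 0.34 on U74Av2.

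Genes that work beside the members were read from lists chosen with earlier results known. Of 54 tested mitochondrial ribosomal protein genes, which build the separate ribosome of mitochondria, 15 rose (27.8%, against 8.20% of all tested probe sets) and 0 fell at 24 h (0%, against 6.66%), and 0 were called at 48 h (limma, with 3 higher and 2 lower at an unadjusted p under 0.05). Their median was 0.31 at 24 h and 0.060 at 48 h, against 0.12 and 0.065 for the 26 cytosolic ribosomal proteins and -0.034 and 0.041 for all tested probe sets. Mrps34, of the small mitochondrial subunit, had the largest rise, 0.82 ± 0.13 (adjusted p = 0.00193), and Mrps28 followed with 0.80 ± 0.16 (adjusted p = 0.00686). The count of 15 was 3 without 24 h control replicate 1 (where 4.94% of all tested probe sets were higher), 1 without control replicate 2 (2.95%), 8 and 9 without 24 h lactacystin replicates 1 and 3 and 1 with no array design covariate. The median stayed between 0.22 and 0.33 as each array was left out.

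Of 15 genes of ribosome biogenesis 3 rose at 24 h (20%, against 8.20% of all tested probe sets) and 0 were called at 48 h, also at an unadjusted p under 0.05. These were Ncl, the nucleolar protein nucleolin (0.40 ± 0.093, adjusted p = 0.0156), Rrs1 (0.47 ± 0.12, adjusted p = 0.0203) and Ebna1bp2 (0.50 ± 0.14, adjusted p = 0.0349), the last 2 being assembly factors of the 60S. That count was 0 without either 24 h control, 1 without 24 h lactacystin replicate 1 or 2, 0 without replicate 3 and 0 with no array design covariate. Of 13 other translation genes Etf1, the release factor that ends translation, rose at 24 h (0.56 ± 0.16, adjusted p = 0.0380), a share of 7.69% that lay near the 8.20% of all tested probe sets. Of 15 kinases and regulators Ddit3, the stress factor CHOP, rose at 24 h (1.22 ± 0.16, adjusted p = 0.000493) and Akt1 fell (-0.58 ± 0.18, adjusted p = 0.0489), 6.67% each way where 8.20% and 6.66% of all tested probe sets were called. The count of 1 lower was 0 with median scaling and in 7 of the 10 fits that left out an array. Atf4, which Ddit3 and Eif4ebp1 lie downstream of, had -0.12 ± 0.15 at 24 h (adjusted p = 0.642) and fell at 48 h (-0.99 ± 0.15, adjusted p = 0.00225). The eIF2 kinase genes Eif2ak1, Eif2ak3 and Eif2ak4 had -0.22, 0.19 and 0.069 at 24 h and were not called.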

How the data were processed

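Total RNA of each culture sample was measured on 1 Affymetrix array of design U74A (4 arrays) or U74Av2 (6 arrays). The values are signal intensities that the authors deposited, made with MAS5 per the submitters' processing notes, whose version those notes leave out. Each array was scaled over the 9977 probe sets that both designs share, without 66 control probe sets, so that its mean after trimming 2% was 500, and values were analysed as log2(signal + 32). The 30% of probe sets with the lowest mean signal (2993) were left out, which left 6984 with mean signals from 54.8. A limma 3.58.1 fit (R 4.3.3; lmFit, and eBayes with a trend) held the 4 groups and the array design, with 5 residual degrees of freedom, and gave 5 comparisons, each adjusted by Benjamini-Hochberg over 6984 probe sets at 0.05. The fits were tested on simulated data. The number of arrays limits the precision.

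Symbols came from the platform annotation (8724 probe sets with 1 symbol, 346 with several, 907 with none). The brightest probe set stood for a gene. The genes named are those called in any comparison, the 3 largest rises and falls of each class at each time, the 2 with the highest and lowest signal of each class, and a set of well-known translation genes, and others were chosen after their values were seen. The members, gene lists and tests were chosen with earlier results of these data known. Alternatives changed the pseudocount, scaling, filter, covariate, arrays, probe sets, variance model, replicate block and samples, and both counting probe sets with several symbols with the members and refitting the translation lists without each array were chosen after seeing the data.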

Additional observations from a re-analysis of the deposited data

Results flagged for a closer look

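The lactacystin effect on Eif3d differed between 48 h and 24 h by -0.73 on the log2 scale (limma, adjusted p = 0.0269), with an effect of 0.68 at 24 h and -0.051 at 48 h. Eif5, the factor that triggers release of eIF2 at the start codon, has a probe set on the U74Av2 design alone, outside the comparisons above. Its signal was 1696 in the 24 h control and 2982 and 3151 with lactacystin, a log2 difference of 0.84, and the difference at 48 h was 0.016. Eif4e2, a relative of eIF4E, has a U74Av2-only probe set with a signal of 93.7 in the 48 h control and 162 and 178 with lactacystin, a log2 difference of 0.68, and the difference at 24 h was 0.37. With 1 control array at each time neither of these 2 was tested.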

How the results depend on the processing

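Array design and the few controls limit these results most. At 24 h 1 of 74 member probe sets was higher with no array design covariate, against 2.46% of all tested probe sets. With eBayes without a trend 5 of 74 were higher, against 7.06% of all. In neither setting did the share of higher members exceed that of all tested probe sets. The count of members called at 24 h (15) was 1 with no array design covariate, 4 on U74Av2 arrays alone and 6 with eBayes without a trend. At 48 h (6) it was 3 with median scaling, 2 with no filter on low probe sets, 0 with no covariate, 2 on U74Av2 arrays alone, 1 without a trend and 2 with the 48 h arrays alone. For the difference between the effects (1) it was 2 with median scaling, 2 with the lowest 50% left out, 2 with the mean over the probe sets of a gene, and 0 with no covariate, on U74Av2 alone or without a trend. For lactacystin at 48 h against 24 h (11) it was 6 with no filter, 1 with no covariate, 5 on U74Av2 alone and 7 without a trend. Leaving out each array in turn gave 3 to 15, 0 to 6, 0 to 1 and 3 to 10, and 0 to 0 for the controls over time. The difference between the medians of ribosomal proteins and factors ran from 0.0043 to 0.262 at 24 h and from 0.0152 to 0.107 at 48 h. Replicate numbers were not taken to pair samples, because no label says that a number marks a shared culture or day. Correlations of residuals (-0.408 to 0.266 over 13 same-numbered pairs) say little here, since the 2 controls of a time mirror each other by construction. With the replicate block beside the array design the counts were 8 at 24 h, 3 at 48 h, 0 for the difference and 6 for lactacystin over time. Of the values for single genes under these alternatives, 5730 kept their side of the threshold, 248 lost a call and 16 gained one, and none of the called values changed sign. The 5730 include values that were not called at first and so had no call to lose. All 248 losses fall on the 15, 6, 1 and 11 calls above. Each of those was refitted in 10 fits that left out an array and 12 to 14 other settings.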
